A study of Mus musculus with 8 samples.

Results

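The genes described here encode the 41 subunits of the complexes that are built around Pontin and Reptin. They are the 2 ATPases themselves (Ruvbl1, which encodes Pontin, and Ruvbl2, which encodes Reptin), 16 subunits of the TIP60 acetyltransferase complex, 12 of the INO80 remodelling complex, 3 of the SRCAP complex, the 2 H2A.Z genes whose product SRCAP deposits, and 6 genes of the R2TP assembly machinery with its partners. Members were matched by gene symbol, and all 41 were among the 49492 rows of the deposited table. All 41 also passed the filter on low values, which 16232 rows passed.

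RNA-seq was performed on 8 libraries of mouse embryonic fibroblasts (MEFs), which are connective tissue cells grown from embryos. Cells of both genotypes were Pontin f/f MEFs that received a Flag-tagged Pontin from a lentivirus and were then infected with Cre virus to delete the endogenous gene, so the control cells carry the deletion as well. WT cells express wild-type Pontin, and RA cells express a form in which 2 arginines are replaced by alanine. Each genotype was grown with glucose (normal medium) or without it (starvation), which gave 4 groups of 2 samples (normal WT, starved WT, normal RA and starved RA). Each genotype is 1 stably selected line, so the line and the form of Pontin cannot be told apart. Nothing in the labels says that the 2 samples of a group came from separate cultures, so p-values measure the spread between these samples, which may be technical. The duration of starvation for RNA-seq was not given in the sources used here.

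Pontin and Reptin are related AAA+ ATPases that assemble into rings. These rings are a shared core of several machines: TIP60 acetylates histones and exchanges H2A.Z, INO80 slides nucleosomes, SRCAP places H2A.Z into chromatin, and R2TP works with HSP90 to assemble small nucleolar RNPs, RNA polymerases and the kinases of the mTOR and ATM family. Most subunits of these complexes are present in dividing fibroblasts as housekeeping components.

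Between 43205841 and 56363034 reads were recovered per sample. Values are CPM, read counts scaled to a common total with a library size adjusted per sample, and members ran from 4.79 to 521 CPM, with at least 232 reads behind every value. Differences were measured on log2(CPM + 1) and called at an adjusted p under 0.05 in limma. The 2 samples of starved RA differed more than those of any other group (chi-square per gene 17.6, against 3.54 to 6.87). This is a mean over 15177 to 15325 genes and does not hold for each member. In starved RA the SD of Kat5 was 0.41 CPM, the smallest of the 4 groups, and that of Ruvbl2 was 3.5, the largest. Of 13 fibroblast markers, 12 reached 1 CPM in at least 1 sample and Lum did not. Their summed level was 11490 to 11594 in normal WT, 11417 to 11759 in normal RA, 5826 to 5911 in starved WT and 7703 in both samples of starved RA. Summed levels of leukocyte markers were 13.3 to 14.0 in normal WT, 23.9 to 25.1 in starved WT, 16.3 to 17.6 in normal RA and 21.2 to 21.8 in starved RA. Endothelial markers summed to 2.52 to 3.39, 8.92 to 9.43, 2.02 to 3.43 and 5.99 to 6.34 in the same order, and epithelial markers to 1.43 to 2.06, 1.84 to 2.12, 1.84 to 1.94 and 2.68 to 3.21. The tested leukocyte and endothelial markers rose in WT (log2 differences of 0.80 for Csf1r, 0.70 for Cd68, 1.53 for Tek and 1.31 for Kdr). The difference between the genotypes in the Tek response was -1.24 (RA less WT). Pecam1 was not tested and went from 0.48 and 0.30 CPM in normal WT to 0.084 and 0.055 in starved WT. Cdh5, also not tested, went from 0.35 and 0.24 to 0.042 and 0. Of the 12 fibroblast markers tested, 1 rose and 9 fell in WT, and 3 rose and 7 fell in RA. In normal medium 4 of these 12 were called between RA and WT, 2 higher and 2 lower, where 9.63% of all genes were called. They included Dcn (1.08) and Col3a1 (-0.25), and of 2 leukocyte markers tested Csf1r was called (0.35). Under starvation 11 fibroblast markers were higher and 1 lower in RA, where 30.8% and 32.1% of all genes were. The marker lists thus moved with starvation or with genotype, in normal medium as well, and their part in the results below was not tested. Of the 7 leukocyte markers Cd3e was at 0 in every sample, of the 6 epithelial markers Krt5 and Krt14 were, and none of the 4 endothelial markers was. In bulk RNA, fewer cells of a type and less RNA per cell cannot be told apart.

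Promoter sequences of 4 members are shown, 2 (Meaf6, Kat5) whose starvation response was higher in RA and 2 (Uchl5, Mbtd1) whose response was lower. Among members with a listed promoter window, these had the largest called differences in response between genotypes in each direction. Ino80c and Actr5 differed more than Kat5, and Tti2 more than Mbtd1, but had no listed window. The sequences are the 250 bases before the start of the gene, taken from RefSeq on GRCm38.p6. Each is written 5′ to 3′ on the strand of the gene. For Kat5 RefSeq lists 2 windows, and the one shown lies nearest to the GENCODE start, 143 bases from it. Capitals mark matches to an E-box (CACGTG), an ETS motif (CCGGAAG) or an NF-Y motif (CCAAT).
Meaf6, chr4:125084884-125085133, plus strand: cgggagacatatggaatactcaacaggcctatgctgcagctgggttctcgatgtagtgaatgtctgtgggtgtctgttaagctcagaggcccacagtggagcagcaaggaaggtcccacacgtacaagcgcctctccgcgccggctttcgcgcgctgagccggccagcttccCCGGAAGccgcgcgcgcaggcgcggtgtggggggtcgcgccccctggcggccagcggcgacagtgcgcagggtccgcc
Kat5, chr19:5610095-5610344, minus strand: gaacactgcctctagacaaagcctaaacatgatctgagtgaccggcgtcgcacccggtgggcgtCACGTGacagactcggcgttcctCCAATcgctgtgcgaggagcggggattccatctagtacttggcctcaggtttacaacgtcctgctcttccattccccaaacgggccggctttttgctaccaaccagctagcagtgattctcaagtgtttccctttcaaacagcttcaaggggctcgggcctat
Uchl5, chr1:143777028-143777277, plus strand: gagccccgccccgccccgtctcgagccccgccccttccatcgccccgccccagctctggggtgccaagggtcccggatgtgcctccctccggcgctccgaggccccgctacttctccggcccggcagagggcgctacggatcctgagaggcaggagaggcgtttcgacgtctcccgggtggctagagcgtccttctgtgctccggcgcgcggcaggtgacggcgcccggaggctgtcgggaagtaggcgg
Mbtd1, chr11:93885600-93885849, plus strand: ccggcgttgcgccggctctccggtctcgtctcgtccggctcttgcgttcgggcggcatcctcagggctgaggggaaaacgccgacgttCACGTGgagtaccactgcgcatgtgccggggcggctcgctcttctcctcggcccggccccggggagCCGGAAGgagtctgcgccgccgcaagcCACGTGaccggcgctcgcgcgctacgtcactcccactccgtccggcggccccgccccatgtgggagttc

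A promoter window was listed for 31 of the 41 members (42 windows, of 32851 in all), each reaching from 250 bases before to 50 bases after the start. Searched on both strands, the E-box was found in 6 of the 42 windows (14.3%, against 7.15% of all windows) and the ETS motif in 11 (26.2%, against 8.86%). NF-Y matches lay in 20 windows (47.6%, against 37.4%). The FOXO motif GTAAACA was found in 0 of the 42 and in 3.65% of all windows, the NRF1 motif in 1 (0.971% of all) and the YY1 motif in 1 (1.36% of all). These counts describe letters in the windows and not binding.

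Compared per kilobase of transcript, the members spanned a wide range in normal WT. H2afz, the main H2A.Z gene, stood highest at 481 CPM per kilobase. It was followed by the MRG-domain genes Morf4l2 and Morf4l1 at 154 and 133, while the lowest were Ino80d at 2.12 and Actr5 at 3.61.

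The question of whether the genotypes differ before starvation was examined first. In normal medium 2 of the 41 members were called between RA and WT, 1 higher and 1 lower, where 9.63% of all tested genes were called (6.68% higher and 2.95% lower). Ruvbl1 was 28.4 and 27.6 CPM for normal WT, 27.9 and 28.4 for starved WT, 36.8 and 32.0 for normal RA, and 45.0 and 42.9 for starved RA. All 4 RA values exceeded all 4 WT values. In normal medium the difference was 0.29 on the log2 scale (SE 0.065, adjusted p = 0.00946), but the call was lost without replicate 1 of normal WT (adjusted p = 0.0508), replicate 2 of normal WT (0.0732) or replicate 1 of normal RA (0.0838). Cre deleted the endogenous gene in both lines, but reads of the added Pontin and of any remaining endogenous transcript cannot be separated in these values. A substituted codon is not visible in them. A processed pseudogene, Gm5837, is 99.3% identical to Ruvbl1 over 1369 bases, and its row was 0.33 higher in RA in normal medium (adjusted p = 0.0388), but reads counted there may come from Ruvbl1.

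Brd8, a bromodomain subunit of TIP60, stood at 102 and 104 CPM for normal WT, 94.4 and 94.9 for starved WT, 93.3 and 88.9 for normal RA, and 90.8 and 91.1 for starved RA. Normal WT was the highest group, and the other 3 lay close together. The difference between genotypes in normal medium was -0.18 (SE 0.041, adjusted p = 0.0115). It was not called without replicate 1 of normal WT (adjusted p = 0.0605), replicate 2 of normal WT (0.101) or replicate 2 of normal RA (0.0869).

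Under starvation 27 of the 41 members were called between RA and WT, 16 higher and 11 lower in RA, where 62.9% of all tested genes were called (30.8% higher and 32.1% lower). The median difference over the members was 0.02, against -0.01 over all genes tested. Within WT, starvation called 36 members, 15 higher and 21 lower, where 78.6% of all genes were called (39.3% higher and 39.2% lower). Within RA it called 30, 17 higher and 13 lower, where 68.7% were called (35.0% higher and 33.7% lower). The difference between these responses (the interaction, RA response less WT response) was called for 19 members, 12 positive and 7 negative, where 50.6% of all genes were called (24.5% positive and 26.1% negative). As shares of the 41 members, these counts were 65.9%, 87.8%, 73.2% and 46.3%, which lie near the shares of all genes. With libraries scaled to total reads the interaction was positive for 15 and negative for 5 of the called members. Over all 16217 genes tested under that scaling, 4652 were called positive and 3349 negative, so the lean to positive was not particular to the members.

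Between the starved groups, the 5 members highest in RA relative to WT were Ino80c (0.88, SE 0.063), Ruvbl1 (0.62, SE 0.065), Kat5 (0.56, SE 0.062), Mcrs1 (0.50, SE 0.042) and Actr5 (0.48, SE 0.10). The 5 lowest were Uchl5 (-0.47, SE 0.056), Tti2 (-0.40, SE 0.049), Mbtd1 (-0.36, SE 0.061), Srcap (-0.29, SE 0.053) and Morf4l2 (-0.28, SE 0.040). These genes were picked by the size of this difference, and their values by sample follow under each complex. This comparison shares its starved samples with the responses within each genotype, so the values are given side by side and are not separate support for each other.

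Of the 41 members, 25 were called in the same direction in both genotypes, 10 in WT and not in RA, and 4 in RA and not in WT. Of all tested genes 78.6% were called in WT and 68.7% in RA. The shares of all genes in these overlap classes were not computed, so the counts are not a trait of the members. Kat5 was called in both in opposite directions, as were 4.76% of all tested genes, and Tfpt was called in neither. The 10 called in WT and not in RA were Brd8, Meaf6, Yeats4, Ino80d, Actr5, Actr8, Mcrs1, Actr6, Telo2 and Znhit2, of which the interaction was called for Meaf6, Yeats4, Actr5, Actr8, Mcrs1 and Telo2.

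**Figure D1:**
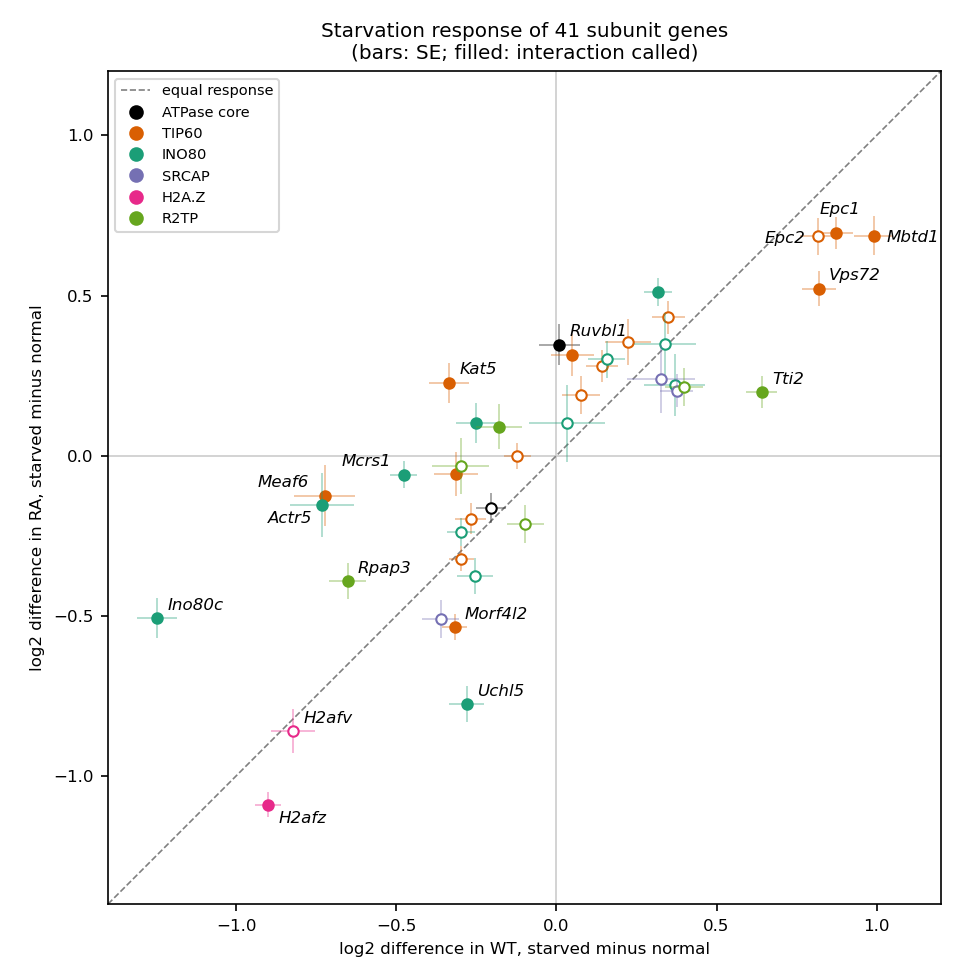
Log2 difference between starved and normal cells in WT (x axis) and RA (y axis) for the 41 members, coloured by complex, with SE bars and filled points where the interaction was called. Most points lie in the lower left and upper right quadrants, Kat5 lies in the upper left at -0.34 in WT and 0.23 in RA, and Ino80c lies farthest left at -1.25 in WT and -0.51 in RA.

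The ATPase pair was examined as the shared core. Ruvbl1 did not pass the test for starvation in WT (0.01, adjusted p = 0.896) and rose in RA by 0.35 (SE 0.065, adjusted p = 1.51e-04). Its interaction was 0.34 (SE 0.091, adjusted p = 0.00568), and the difference between starved RA and starved WT was 0.62, or 1.56-fold. With the endogenous gene deleted by Cre in both lines, this row may hold mainly reads of the added Pontin. These values therefore cannot be read as a response of the endogenous gene, and the part of the added copy was not tested. Ruvbl2 stood at 79.4 and 81.8 CPM for normal WT, 70.3 and 69.3 for starved WT, 82.3 and 87.1 for normal RA, and 78.0 and 73.0 for starved RA. It fell by 0.20 in WT and decreased by 0.16 in RA, and its interaction was 0.04 (adjusted p = 0.64). The RA response of Ruvbl2 was not called without replicate 2 of normal RA (adjusted p = 0.0503) or replicate 2 of starved RA (0.0882).

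Since both proteins enter one ring, their levels per kilobase were also set side by side. The Ruvbl1 level may come mainly from the Pontin added by lentivirus but was divided by the length of the endogenous transcript. The share therefore does not give the balance of the 2 endogenous genes or of the proteins. Ruvbl1 made up 32.4% ± 0.92 (SD, n = 2) of the pair in normal WT and 35.8% ± 0.55 in starved WT. In RA it made up 35.9% ± 3.2 in normal medium and 44.6% ± 0.29 under starvation. The starved RA samples, at 44.4% and 44.8%, lay above every other sample, the next being a normal RA sample at 38.2%. In GRCm38 Ruvbl2 and Gys1, which lie on opposite strands, share 310 exon bases, and Gys1 rose by 0.34 in WT and by 0.79 in RA. The treatment of reads in such overlaps is not given in the sources used here.

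**Figure D2:**
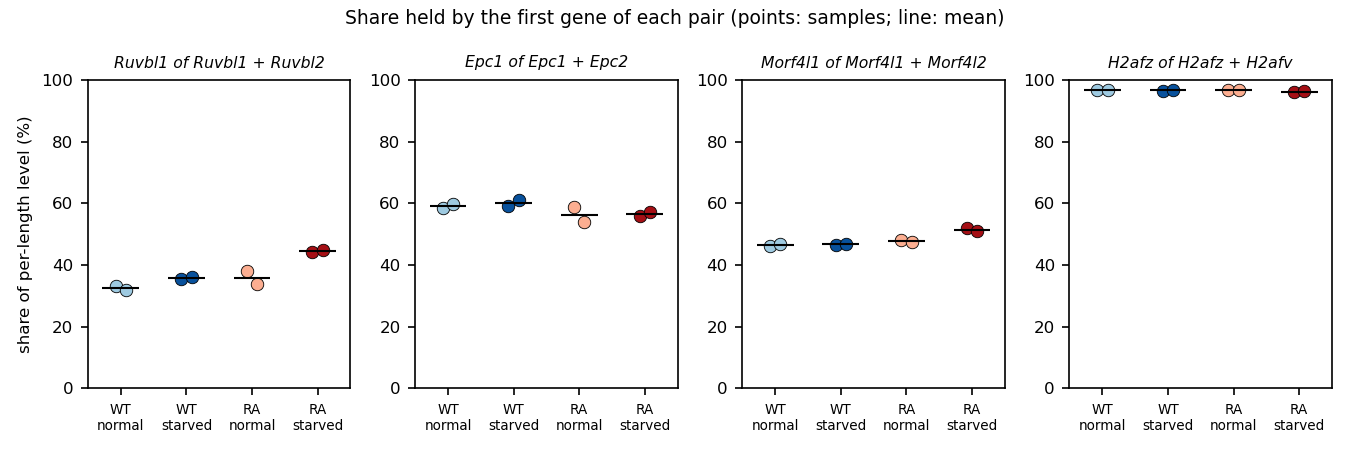
Share in % of the summed level per kilobase held by the first gene of 4 pairs, with 1 point per sample (2 per group) and a line at the mean. Ruvbl1 reaches 44.6% in starved RA, while the H2afz share stays between 96.2% and 96.9% in all 8 samples.

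TIP60 is the acetyltransferase complex, and 14 of its 16 genes were called for starvation in WT (7 higher and 7 lower). Of all genes 78.6% were called there (39.3% higher and 39.2% lower). In RA 13 were called (10 higher and 3 lower), where 68.7% of all genes were (35.0% higher and 33.7% lower). The interaction was called for 8, with 4 in each direction, where 50.6% of all genes were called (24.5% positive and 26.1% negative). Kat5, the catalytic subunit, was 43.7 and 39.8 CPM for normal WT, 31.4 and 34.4 for starved WT, 39.9 and 43.2 for normal RA, and 48.5 and 49.1 for starved RA. The starved WT samples were the lowest of the 8 and the starved RA samples the highest. Kat5 fell by 0.34 in WT (SE 0.062, adjusted p = 9.62e-05) and rose by 0.23 in RA (adjusted p = 0.00361). The interaction was 0.56 (SE 0.087, adjusted p = 4.93e-05), and 20.5% of all tested genes had a larger one in size. Exons of Kat5 share 426 bases with Rnaseh2c on the opposite strand, which had differences of 0.17 in WT and -0.01 in RA.

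Meaf6, a small subunit shared with other acetyltransferase complexes, stood at 17.1 and 20.6 CPM for normal WT, 10.4 and 11.6 for starved WT, 14.99 and 16.7 for normal RA, and 14.8 and 14.1 for starved RA. Starved WT lay below all other samples. Meaf6 fell by 0.72 in WT (SE 0.095, adjusted p = 2.27e-06), its difference in RA was -0.13 (adjusted p = 0.252), and the interaction was 0.60 (SE 0.13, adjusted p = 0.00141).

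The Enhancer of polycomb genes Epc1 and Epc2 encode the scaffold that holds the acetyltransferase module. Epc1 was 41.5 and 41.2 CPM for normal WT, 74.7 and 78.6 for starved WT, 40.7 and 37.7 for normal RA, and 63.7 and 64.4 for starved RA. Epc2 was 34.9 and 32.8, 61.3 and 59.6, 34.0 and 38.0, and 59.5 and 57.2 in the same order. Both rose in WT, by 0.87 (SE 0.050) and 0.82 (SE 0.058), and in RA, by 0.70 and 0.68, with no overlap between starved and normal samples in either line. The interaction of Epc1 was -0.18 (adjusted p = 0.0446) and lost its call when any of 6 of the 8 libraries was left out (adjusted p = 0.0816 to 0.158), the exceptions being replicate 1 of starved WT and replicate 2 of normal RA. That of Epc2 was -0.13 (adjusted p = 0.187). Epc1 held 59.1% of the pair per kilobase in normal WT and 56.5% in starved RA.

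Mbtd1 and Vps72 rose with them. Mbtd1, a histone reader with MBT repeats, was 22.9 and 21.8 CPM for normal WT, 46.2 and 44.6 for starved WT, 22.5 and 20.6 for normal RA, and 35.4 and 35.1 for starved RA. Vps72, the H2A.Z chaperone YL1 that TIP60 and SRCAP share, was 44.2 and 48.1, 83.9 and 80.5, 48.7 and 53.1, and 72.5 and 74.5. In both genes starved WT was highest and starved RA lay between it and the normal samples. Mbtd1 rose by 0.99 in WT (SE 0.061, 2.03-fold in CPM) and by 0.69 in RA, an interaction of -0.30 (SE 0.086, adjusted p = 0.00737). Vps72 rose by 0.82 in WT (SE 0.054) and by 0.52 in RA, an interaction of -0.30 (SE 0.076, adjusted p = 0.00369).

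The MRG genes Morf4l1 and Morf4l2, of which Morf4l1 has a chromodomain, moved the other way. Morf4l2 was 302 and 312 CPM for normal WT, 246 and 246 for starved WT, 284 and 305 for normal RA, and 200 and 206 for starved RA. It fell by 0.32 in WT and decreased by 0.54 in RA (SE 0.040), an interaction of -0.22 (SE 0.057, adjusted p = 0.0044). Morf4l1 fell by 0.30 in WT and decreased by 0.32 in RA, and its interaction was -0.02 (adjusted p = 0.741). Its share of the pair per kilobase was 46.4% in normal WT, 46.7% in starved WT, 47.7% in normal RA and 51.4% in starved RA. Morf4l1 shares 1499 exon bases with Gm26882 on the opposite strand, which had nearly the same responses (-0.21 in WT and -0.32 in RA). Pseudogenes nearly identical over part of the transcript exist for both genes (5 for Morf4l1, 2 for Morf4l2), so their counts are uncertain to that extent.

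The large proteins Ep400, the remodelling ATPase, and Trrap, the scaffold, rose in both genotypes. Ep400 rose by 0.35 in WT and by 0.43 in RA, and Trrap by 0.14 in WT and 0.28 in RA. Neither interaction was called (0.08 and 0.14), and the WT call of Trrap was lost without replicate 2 of normal WT (adjusted p = 0.12) or replicate 1 of starved WT (0.327). Dmap1 had a difference of 0.05 in WT (adjusted p = 0.505) and rose by 0.31 in RA. Its interaction was 0.26, with an adjusted p of 0.0271 that lost its call without replicate 2 of normal WT (0.0817), replicate 1 of starved WT (0.125), replicate 2 of normal RA (0.0915) or replicate 2 of starved RA (0.102).

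Yeats4, a reader of acetylated histones, fell by 0.31 in WT and had a difference of -0.06 in RA, and the call of its interaction of 0.26 was lost without any of 5 libraries (replicate 2 of normal WT, replicate 1 of starved WT, replicate 1 of normal RA and both of starved RA, adjusted p = 0.0756 to 0.183). Ing3, which reads methylated histone H3, rose by 0.35 in RA and 0.22 in WT, the latter not called without replicate 2 of normal WT (adjusted p = 0.0655). Actl6a, the actin-like subunit, fell by 0.27 in WT and decreased by 0.20 in RA. Mrgbp rose by 0.19 in RA, a call lost without replicate 2 of normal RA (adjusted p = 0.0637) or replicate 2 of starved RA (0.0769). Brd8 fell by 0.12 in WT, which was not called without replicate 2 of normal WT (adjusted p = 0.0877), and its difference in RA was -0.00 (adjusted p = 0.977).

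**Figure D3:**
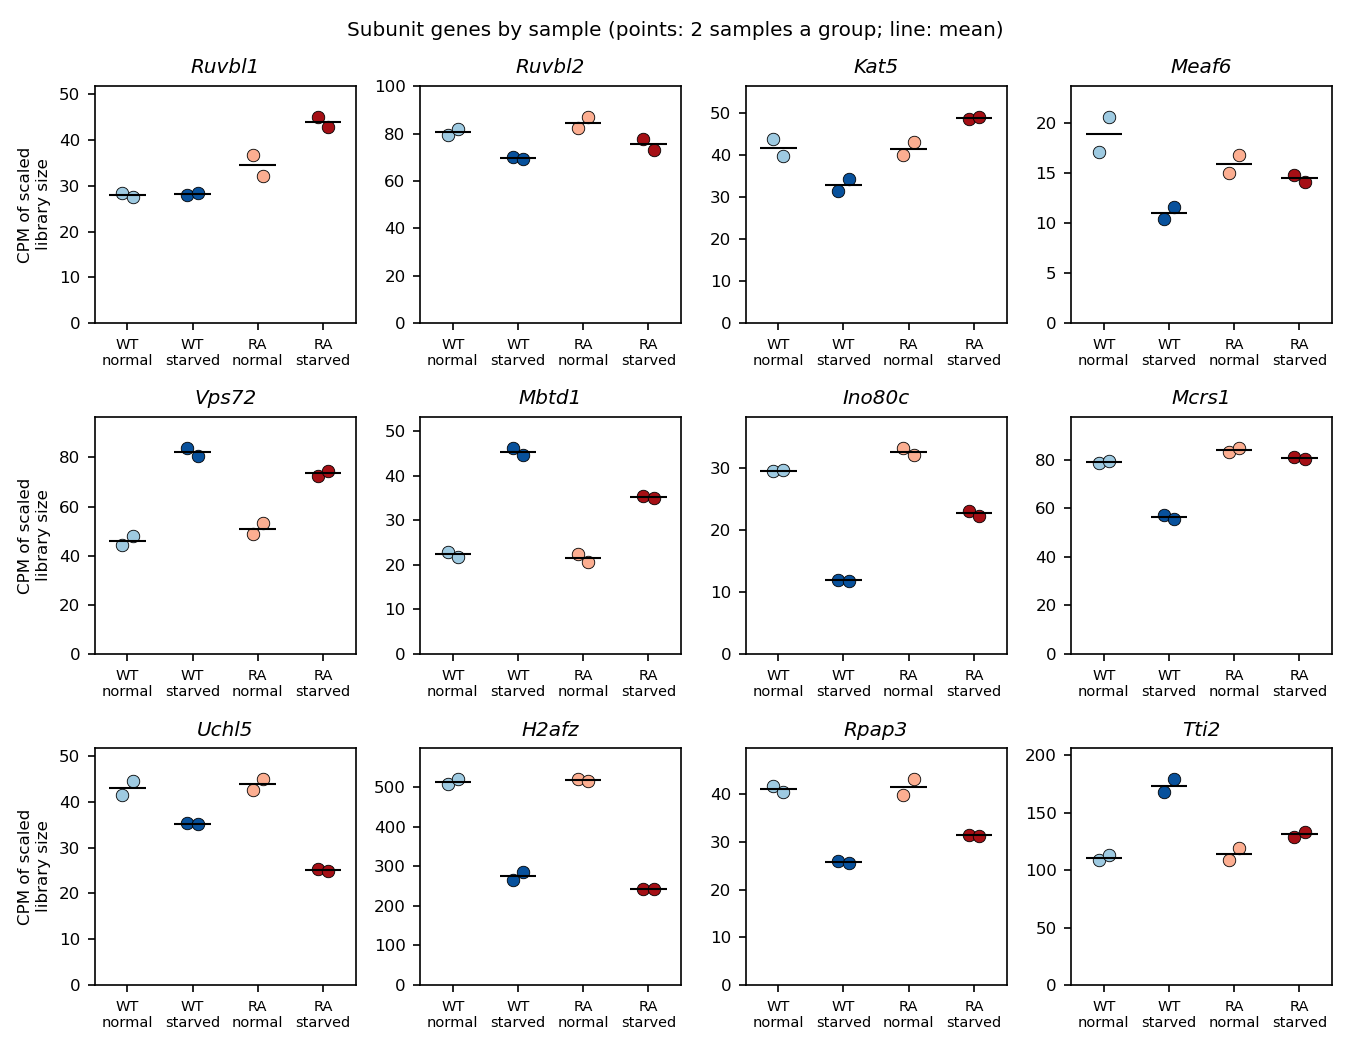
CPM of the scaled library size in each of the 8 samples (points) and the group mean (line) for 12 members, with a separate y axis from 0 in each panel. Ino80c, Mcrs1 and Meaf6 are lowest in starved WT, Uchl5 and H2afz are lowest in starved RA, and Vps72, Mbtd1 and Tti2 are highest in starved WT.

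INO80 is the nucleosome-sliding complex, and 11 of its 12 genes were called for starvation in WT (4 higher and 7 lower). Of all genes 78.6% were called there (39.3% higher and 39.2% lower). In RA 7 were called (3 higher and 4 lower), where 68.7% of all genes were (35.0% higher and 33.7% lower). The difference between these counts was not tested. The interaction was called for 6, with 5 positive, where 50.6% of all genes were called (24.5% positive and 26.1% negative). Ino80c, a subunit that contacts the ATPase core, was 29.5 and 29.8 CPM for normal WT, 11.99 and 11.8 for starved WT, 33.3 and 32.1 for normal RA, and 23.0 and 22.3 for starved RA. The starved WT samples were the lowest of the 8 and the starved RA samples came next. Ino80c fell by 1.25 in WT (SE 0.063, adjusted p = 7.7e-12) and decreased by 0.51 in RA (adjusted p = 1.77e-06). Under starvation it was 1.91-fold higher in RA, a difference of 0.88, and the interaction of 0.74 (SE 0.089, adjusted p = 3.4e-06) was exceeded in size by 12.1% of all tested genes.

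Actr5, the actin-related subunit Arp5 that works beside Ino80c, was 8.76 and 8.59 CPM for normal WT, 4.86 and 4.79 for starved WT, 8.46 and 7.61 for normal RA, and 7.05 and 7.19 for starved RA. Mcrs1 was 78.8 and 79.4, 57.5 and 55.7, 83.3 and 84.9, and 81.1 and 80.2 in the same order. In both genes starved WT lay below the other 6 samples, which ranged from 7.05 to 8.76 for Actr5 and from 78.8 to 84.9 for Mcrs1. Actr5 fell by 0.73 in WT (SE 0.10) with an interaction of 0.58 (SE 0.14, adjusted p = 0.00267), and Mcrs1 fell by 0.48 in WT (SE 0.042) with an interaction of 0.42 (SE 0.059, adjusted p = 2.03e-05). The RA differences were -0.15 (adjusted p = 0.183) and -0.06 (adjusted p = 0.216). A copy of Mcrs1, Gm13127, is nearly identical over 1389 bases, with differences of -0.50 in WT and -0.14 in RA.

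Actr8, another nuclear actin-related subunit, fell by 0.25 in WT and had a difference of 0.10 in RA. Its interaction was 0.35 (SE 0.089, adjusted p = 0.0035). Actl6a, also actin-related, and Ruvbl1 and Ruvbl2 belong to INO80 as well but were counted elsewhere. The ATPase gene Ino80 was 59.8 and 58.7 CPM for normal WT, 76.3 and 71.9 for starved WT, 59.1 and 58.8 for normal RA, and 84.3 and 84.5 for starved RA. It rose by 0.32 in WT and by 0.51 in RA (SE 0.044), and starved RA was the highest group. Its interaction of 0.19 (adjusted p = 0.0169) was not called without replicate 1 of normal WT (adjusted p = 0.0584), replicate 2 of starved WT (0.081) or replicate 2 of starved RA (0.0533).

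Uchl5, a deubiquitinase that INO80 shares with the proteasome, was 41.5 and 44.5 CPM for normal WT, 35.3 and 35.1 for starved WT, 42.6 and 45.0 for normal RA, and 25.4 and 24.9 for starved RA. Both starved groups lay below the normal ones, and starved RA was the lowest. Uchl5 fell by 0.28 in WT (SE 0.056) and decreased by 0.78 in RA. The interaction of -0.50 (SE 0.079, adjusted p = 6.29e-05) was the lowest among the 41 members.

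The remaining INO80 genes had no called interaction. Ino80e fell by 0.25 in WT and decreased by 0.38 in RA, and Yy1, a zinc-finger transcription factor, fell by 0.30 in WT and decreased by 0.24 in RA. Nfrkb rose by 0.30 in RA and 0.16 in WT, the latter not called without replicate 1 of normal WT (adjusted p = 0.0897) or replicate 1 of starved WT (0.0944). Ino80b rose by 0.34 in WT and by 0.35 in RA, calls lost without replicate 1 of normal WT (adjusted p = 0.0591) and replicate 1 of normal RA (0.0709). Ino80d rose by 0.37 in WT and had a difference of 0.22 in RA (adjusted p = 0.0511). Tfpt lay between 7.79 and 10.7 CPM in all samples and was called in no comparison. Exons of Ino80e share 1103 bases with Doc2a on the opposite strand.

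Of the 3 genes counted here under SRCAP, all were called for starvation in WT and 2 in RA, where 78.6% and 68.7% of all genes were called. The interaction was called for 0 by limma, where 50.6% of all genes were called, 0 by edgeR and 0 by DESeq2. At an unadjusted p under 0.05 limma gave 1, Srcap. Ruvbl1, Ruvbl2, Vps72, Dmap1, Yeats4 and Actl6a, which SRCAP shares with other complexes, were counted elsewhere. The interactions of Ruvbl1, Ruvbl2 and Vps72 were 0.34 (called), 0.04 (not called) and -0.30 (called). Those of Dmap1, Yeats4 and Actl6a were 0.26 (called), 0.26 (called) and 0.07 (not called). The absence of calls thus holds for the genes counted here and not for the whole complex. Srcap, the ATPase that exchanges H2A.Z, was 98.7 and 93.4 CPM for normal WT, 131 and 119 for starved WT, 92.9 and 84.6 for normal RA, and 103 and 101 for starved RA. Starved WT was the highest group. Srcap rose by 0.38 in WT and by 0.20 in RA (SE 0.053), and under starvation it was 0.29 lower in RA on the log2 scale, a difference of -0.29 (adjusted p = 1.63e-04). Another annotated gene, Gm42715, shares 9738 exon bases with Srcap on the same strand and had nearly the same values, so these rows are not separate measurements.

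Znhit1, a zinc-finger subunit, was 38.2 and 37.5 CPM for normal WT, 28.6 and 29.8 for starved WT, 36.3 and 39.3 for normal RA, and 26.9 and 25.6 for starved RA. Both starved groups lay below the normal ones. It fell by 0.36 in WT and decreased by 0.51 in RA (SE 0.059). Actr6, an actin-related subunit, rose by 0.33 in WT and had a difference of 0.24 in RA (adjusted p = 0.056). The WT rise of Actr6 was not called without replicate 2 of normal WT (0.21) or replicate 2 of starved WT (0.24). Znhit1 shares 529 exon bases with Plod3 on the opposite strand.

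Both H2A.Z genes fell under starvation in both genotypes. H2afz was 508 and 521 CPM for normal WT, 265 and 286 for starved WT, 521 and 515 for normal RA, and 244 and 242 for starved RA. H2afv was 25.4 and 26.2, 14.3 and 14.1, 26.4 and 27.6, and 14.8 and 14.0 in the same order. Every starved sample lay below every normal sample for both genes. H2afz fell by 0.90 in WT and decreased by 1.09 in RA (SE 0.040, adjusted p = 1.31e-12 and 2.54e-13), to 0.535 and 0.469 of the normal level. Copies nearly identical to H2afz lie in a transcript of Tmcc1 (682 bases) and in the pseudogene Gm8203 (387 bases), which had differences of -0.75 and -0.87 in WT and -0.86 and -0.96 in RA, so reads may be shared between these rows. H2afv fell by 0.82 in WT and decreased by 0.86 in RA (SE 0.069). The H2afz interaction of -0.19 (adjusted p = 0.0106) was not called without replicate 1 of normal WT (adjusted p = 0.0526) or replicate 2 of starved WT (0.0578).

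The 6 genes of R2TP and its partners divided by direction. Tti2, of the TTT complex that stabilises mTOR-family kinases, was 108 and 113 CPM for normal WT, 168 and 179 for starved WT, 109 and 120 for normal RA, and 129 and 133 for starved RA. Starved WT was the highest group and starved RA came next. Tti2 rose by 0.64 in WT (SE 0.049) and by 0.20 in RA, an interaction of -0.44 (SE 0.069, adjusted p = 5.33e-05). Exons of Tti2 share 882 bases with Mak16 on the opposite strand, and Mak16 had nearly the same differences (0.66 in WT, 0.13 in RA, interaction -0.53), so reads of the pair may not be separable.

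Rpap3, the scaffold that joins R2TP to HSP90, was 41.7 and 40.6 CPM for normal WT, 26.1 and 25.5 for starved WT, 39.8 and 43.2 for normal RA, and 31.5 and 31.3 for starved RA. Starved WT was the lowest group and starved RA came next. It fell by 0.65 in WT and decreased by 0.39 in RA (SE 0.057), and its interaction of 0.26 (adjusted p = 0.0124) was not called without replicate 1 of normal RA (adjusted p = 0.0553). Pih1d1, the adaptor that binds client proteins, rose by 0.40 in WT and by 0.22 in RA, the latter not called without replicate 2 of starved RA (adjusted p = 0.05). Telo2 and Tti1, the partners of Tti2, had differences of -0.18 and -0.10 in WT, and in RA Telo2 had a difference of 0.09 while Tti1 fell by 0.21. The Telo2 call in WT was lost without replicate 2 of normal WT (adjusted p = 0.151) or replicate 2 of starved WT (0.22). Its interaction of 0.27 (adjusted p = 0.0334) was lost without replicate 2 of normal WT (0.107), replicate 2 of starved WT (0.132), replicate 2 of normal RA (0.147) or replicate 1 of starved RA (0.128). Znhit2 fell by 0.30 in WT, which was not called without replicate 2 of normal WT (0.085) or replicate 1 of starved WT (0.0549), and had a difference of -0.03 in RA.

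**Figure D4:**
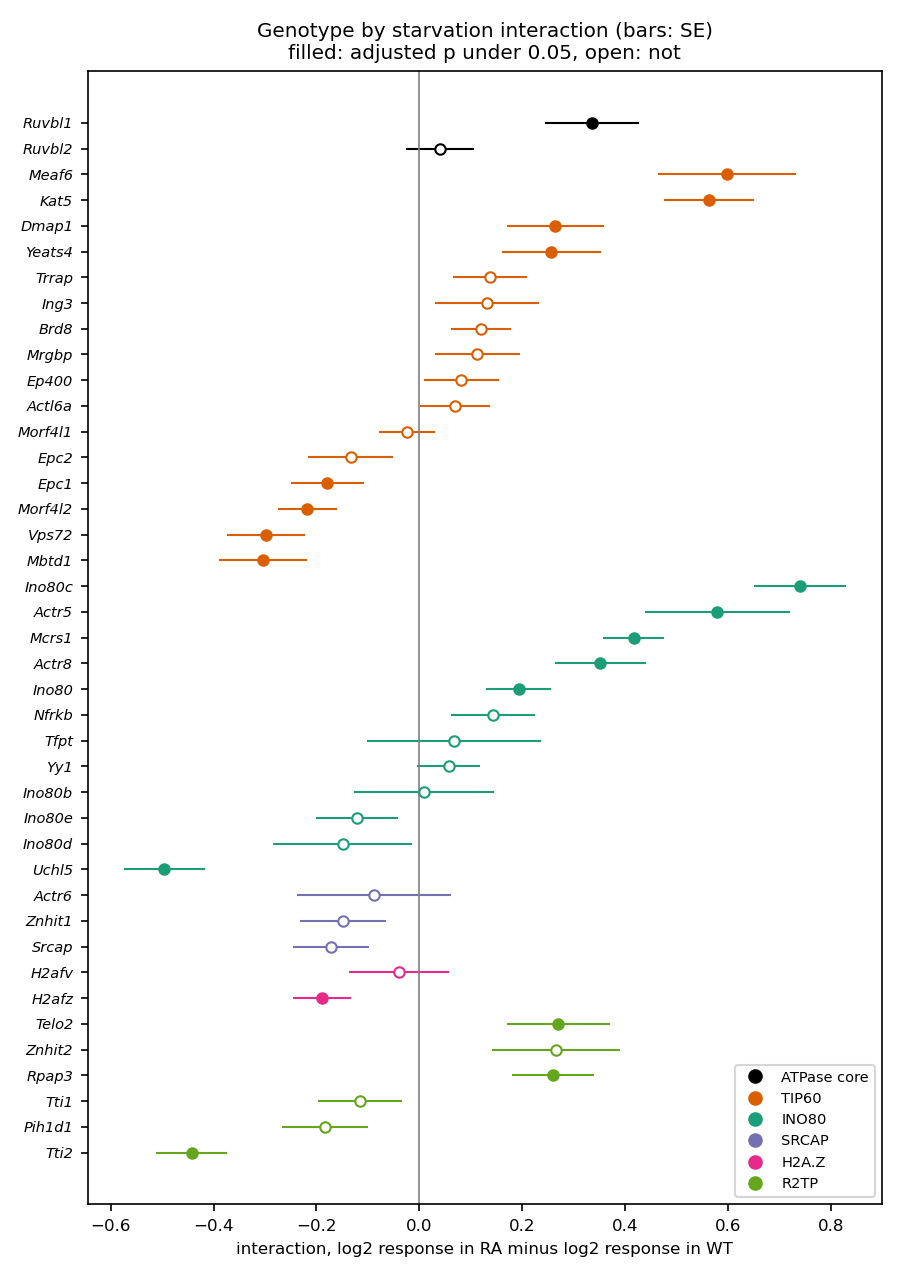
Interaction (log2 response to starvation in RA minus that in WT) of each member with its SE, ordered within each complex, filled where called. Ino80c has the highest value at 0.74 and Uchl5 the lowest at -0.50, and none of the 3 genes counted under SRCAP is called.

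Genes that work with these complexes were read from the same fits. In these, 39.3% of all genes rose and 39.2% fell in WT, and 35.0% rose and 33.7% fell in RA. The interaction was called for 50.6% of all genes (24.5% positive and 26.1% negative). Of 5 genes for H2A.Z removal and other H2A variants, 4 fell in WT and 5 in RA (medians -1.72 and -1.46), led in WT by H2afx, which fell by 1.90, and H2afy2, which fell by 1.88. Of 13 genes of small nucleolar RNP assembly, 7 fell and 3 rose in WT, while 10 fell and 1 rose in RA. The interaction was called for 8 of them, 7 negative, including Znhit3 (-0.67) and Nop10 (-0.62). Of the 7 prefoldin-like partners of R2TP, 4 rose and 1 fell in WT, and 3 rose and 3 fell in RA. Among the 5 kinases that TTT stabilises, 2 rose and 1 fell in each genotype. Atr rose by 0.91 in WT and by 0.37 in RA, an interaction of -0.53 (adjusted p = 2.27e-05). Prkdc moved the other way, as it fell by 0.68 in WT and had an interaction of 0.46 (adjusted p = 0.00548). Of the HSP90 genes, Hsp90aa1 fell by 0.31 in WT and decreased by 0.27 in RA. Hsp90ab1 fell by 0.23 in RA and was not called in WT, with an interaction of -0.26 (adjusted p = 0.00582).

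Other acetyltransferase and remodelling complexes gave a comparison with TIP60, INO80 and SRCAP, to be read against the same shares of all genes (78.6% called in WT, 68.7% in RA, and 62.9% between the starved groups, 30.8% higher and 32.1% lower in RA). Of 19 genes of other MYST acetyltransferase complexes, 13 rose and 3 fell in WT (median 0.59), 11 rose and 4 fell in RA (median 0.42), and under starvation 12 were lower and 2 higher in RA. Brd1 rose by 1.22 in WT, while Jade2 fell by 3.26. Of 22 SWI/SNF genes, 10 fell and 6 rose in WT, and 14 fell and 5 rose in RA. Of 19 NuRD and CHD genes, 10 fell and 5 rose in WT, and 13 fell and 5 rose in RA, with Chd4 falling by 1.47 in WT and an interaction of 0.72. All 9 tested ISWI genes were called in WT, 5 higher and 4 lower, and 6 in RA, 1 higher and 5 lower.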

How the data were processed

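The authors prepared polyA libraries with TruSeq RNA v2 and sequenced them as paired reads on an Illumina HiSeq. The submitters' processing notes name TopHat2 2.0.9, bedtools and edgeR, with mm9. The counting program's settings, annotation and strand handling are not given in the sources used here. The authors deposited a signal per gene, the CPM of a library size scaled per sample. Columns named minus and plus were read as normal medium and starvation, as the study marks its conditions. Whole reads were recovered for 100% of the values checked (tolerance 0.02 reads). Values with many reads, which include those of most members, were rounded to whole reads and not checked. Between 78.2% and 80.5% of counts from 1 to 9 were even, as when both mates are counted. A level of 3 reads lay at 0.0548 to 0.069, and depth covers counting error only. The design named CPM, and the same test was used. Genes with at least 1 CPM in at least 2 samples were tested on log2(value + 1), which understates changes of low genes, with limma (3.58.1, R 4.3.3), group means fitted to all 8 samples together, a mean-variance trend in eBayes and Benjamini-Hochberg adjustment per contrast over 16232 genes. There were 5 contrasts. The test was tried on simulated data.

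The members and lists were chosen with earlier results of these data known, and the rule named, per contrast, the 5 highest and 5 lowest called members and, per related list, at most 2 called genes with the largest difference. Alternatives were the pseudocount (0.1), no filter, 3 scalings, the groups compared alone, the replicate block, no trend, an adjusted p under 0.01, each sample left out, and edgeR (4.0.16) and DESeq2 (1.42.0) on recovered reads. Per-kilobase levels used the longest coding transcript and exon overlaps used the GRCm38 annotation GENCODE M21, a later build than that of the files. Copies were sought with BLAST (2.17.0) at 95% identity over at least 200 bases.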

Additional observations from a re-analysis of the deposited data

Results flagged for a closer look

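The response to starvation differed between RA and WT for 19 members by the interaction test of limma. That is 46.3% of the 41 members, where 50.6% of all tested genes were called, so the count is not particular to the members. Some of these calls were lost under the alternatives described below. Each of the 19 is given here as the log2 response in RA less that in WT, with 2 samples in each group. No explanation was tested.

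Positive interactions, in which RA lay above what the WT response would give, were found for Ino80c (0.74), Meaf6 (0.60), Actr5 (0.58), Kat5 (0.56), Mcrs1 (0.42), Actr8 (0.35), Ruvbl1 (0.34), Telo2 (0.27), Dmap1 (0.26), Rpap3 (0.26), Yeats4 (0.26) and Ino80 (0.19). Ino80c and Rpap3 fell in both genotypes, and Meaf6, Actr5, Mcrs1, Actr8, Telo2 and Yeats4 fell in WT and were not called in RA. Kat5 fell in WT and rose in RA, Ino80 rose in both, and Ruvbl1 and Dmap1 rose in RA and were not called in WT.

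Negative interactions were found for Uchl5 (-0.50), Tti2 (-0.44), Mbtd1 (-0.30), Vps72 (-0.30), Morf4l2 (-0.22), H2afz (-0.19) and Epc1 (-0.18). Uchl5, Morf4l2 and H2afz fell further in RA, and Tti2, Mbtd1, Vps72 and Epc1 rose less.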

How the results depend on the processing

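The 114 called member differences kept their direction under all 19 alternatives, or 18 for the interaction, which needs all 4 groups. Of these, 82 stayed called under every one and 32 lost the call under at least 1. In normal medium the number of members called was 2 as reported, 1 without the filter, 0 without the eBayes trend and 1 at an adjusted p under 0.01. The interaction was called for 19 members as reported, 12 without the trend and 12 at an adjusted p under 0.01. Leaving out 1 library at a time gave 0 to 3 members in normal medium, 21 to 27 between the genotypes under starvation, 30 to 36 for starvation in WT, 28 to 32 in RA and 15 to 19 for the interaction, and the lone sample left in an arm was assumed to vary like the others. The number called in normal medium was 0 without replicate 1 or replicate 2 of normal WT, 1 without replicate 2 of normal RA and 3 without replicate 1 of normal RA, and Ruvbl1 was not among these 3. The cause of these changes was not tested.

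With the replicate number as a block the counts of members were 2, 28, 36, 32 and 20 in the same order. The log2 difference between replicate 1 and replicate 2 was taken for each gene within each group. These differences correlated between -0.0076 and 0.157 across the pairs of groups, so the number was used only as a name. On recovered reads edgeR called 2, 27, 35, 30 and 19 members and DESeq2 2, 24, 35, 30 and 15. Members had at least 232 reads in every sample, where both mates appear to be counted. The SE of a difference between 2 groups was 0.10 for Actr5, the member with the fewest reads. It was 0.040 for H2afz, the member with the most. How far depth limited the members was not tested, and 2 samples a group limit the precision.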
